A study of Mus musculus with 9 samples.

Results

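The liver X receptors (LXR) and the cholesterol efflux genes that they control were followed through 3 subsets of mouse monocytes grown in vitro. The set holds 9 genes, chosen by symbol from the estimated count table. They are Nr1h3 and Nr1h2, which encode LXR alpha and LXR beta, their partner Rxra, and the target genes Abca1, Abcg1, Mylip, Apoe, Lpcat3 and Pltp. All 9 symbols matched 1 Ensembl gene each of the 46517 in the table, and all 9 had enough counts to be tested. The cells were primary monocytes of wild-type (wt) C57BL/6 mice with no treatment given in the labels, labelled as patrolling (pMo), intermediate (intMo) and conventional (cMo), with 3 libraries each numbered 0, 1 and 2. The series title derives the pMo from bone marrow in cultures with OP9-DLL1 cells, a mouse stromal line that presents the Notch ligand Delta-like 1. The labels do not say how the subsets were sorted, how old the mice were or whether libraries of a subset came from separate cultures, so the p-values measure only the spread between these libraries, which may be technical.

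LXR alpha and LXR beta are nuclear receptors for oxysterols and other sterols. Each pairs with a retinoid X receptor such as RXR alpha and sits on direct repeats in DNA, holding co-repressors without a ligand and co-activators with one. Some of their targets lower the sterol content of a cell. ABCA1 and ABCG1 pass cholesterol to lipoproteins, APOE accepts it, and MYLIP limits the uptake of lipoprotein. In the mouse, LXR alpha is needed for the macrophages of the splenic marginal zone, and loss of ABCA1 and ABCG1 raises the number of blood monocytes.

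The libraries held between 18455116 and 29985684 estimated counts. Between pMo and cMo markers moved as the labels name them (edgeR, adjusted p under 0.05). In pMo 7 of 8 conventional monocyte genes were lower (15.9% of all genes) and 10 of 10 patrolling monocyte genes, Cd36 among them, higher (17.2%). In intMo against cMo 7 conventional genes fell (10.4%), while 7 patrolling genes rose (14%) and 2, Spn and Ceacam1, fell. In pMo against intMo 9 patrolling genes rose (3.29%) and no conventional gene was called (1.69% lower). Libraries numbered 0 stood apart. Across all genes tested, the log2 level in CPM (counts scaled to a fixed library total, after TMM) of library 0 correlated with the other libraries of its subset at 0.951 to 0.975, and that of libraries 1 and 2 with each other at 0.986 to 0.99. Of the 9 LXR genes, library 0 was the highest for 9 in intMo and for 7 in pMo, and the lowest for 7 in cMo, so changes are also given from libraries 1 and 2 alone.

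Measured against cMo, 6 of the 9 genes rose in intMo and none fell, where 14% of the 14059 genes tested were called higher, 10.4% lower and 24.4% in either direction. The 6 were Nr1h3, Rxra, Abca1, Abcg1, Mylip and Apoe. In pMo, 4 rose against cMo (Nr1h3, Abcg1, Mylip and Apoe), where 17.2% of all genes were called higher, 15.9% lower and 33.1% in either direction. Both comparisons use the same cMo libraries and are not independent. Between pMo and intMo none of the 9 was called, and 3.29% of all genes were called higher, 1.69% lower and 4.99% in either direction. In the last comparison DESeq2 called 1 gene, Rxra, lower, where it called 5.48% of all genes higher and 4.6% lower. At an unadjusted edgeR p under 0.05 that comparison held Nr1h3 and Rxra. The share of all genes at that looser level was not computed. The median log2 fold change of the 9 genes was 2.07 in intMo against cMo, 1.59 in pMo against cMo and -0.15 in pMo against intMo, and over all genes tested it was -0.0083, 0.025 and -0.016. In a test of any difference among the 3 subsets, 6 of the 9 genes and 33% of all genes were called.

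**Figure D1:**
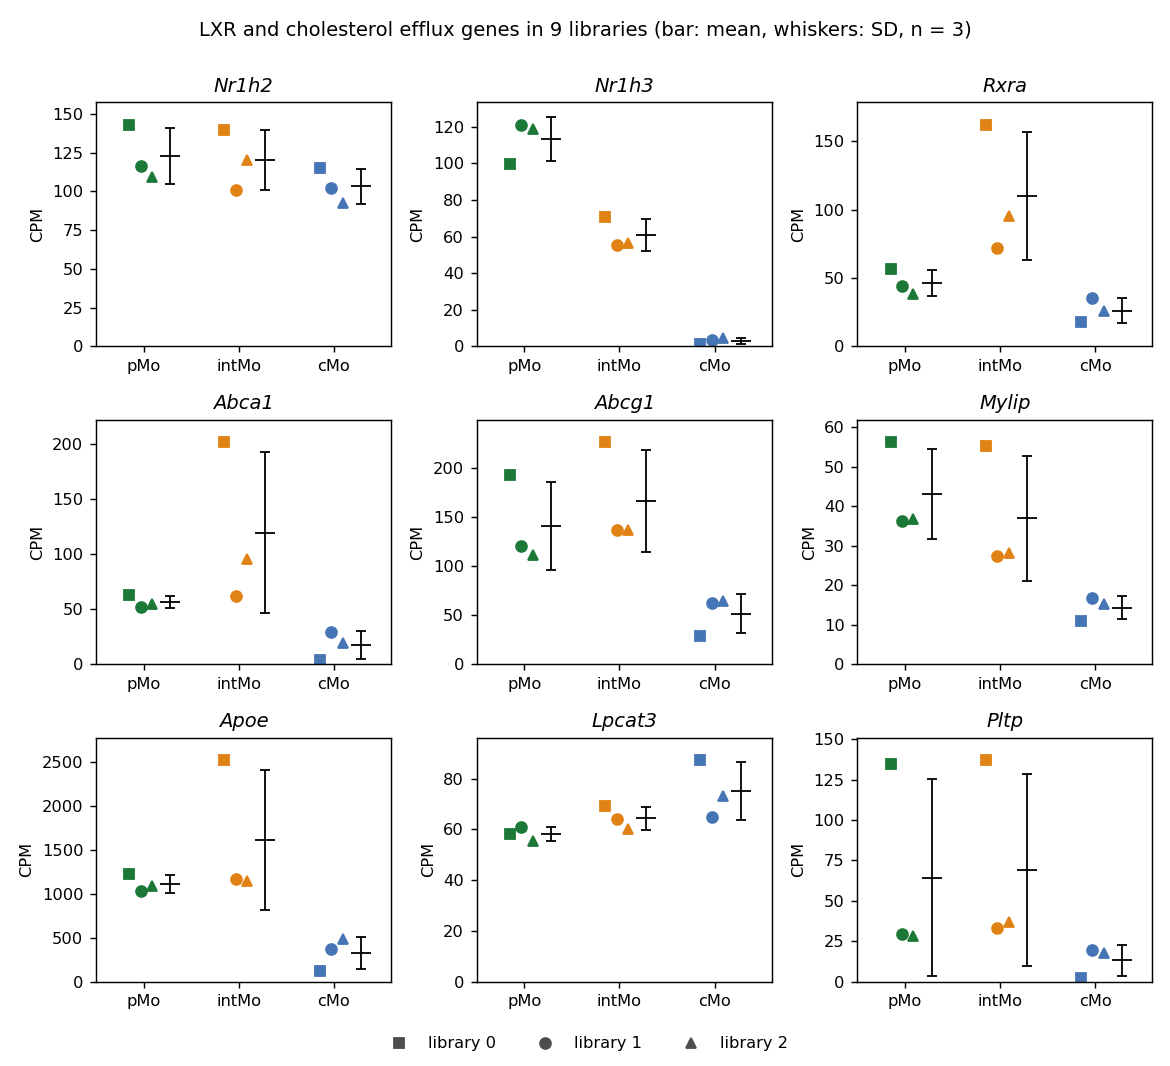
Level of each gene in CPM (linear axes from 0) in the pMo, intMo and cMo libraries, with squares, circles and triangles for libraries 0, 1 and 2, a bar at the mean and whiskers of 1 SD (n = 3). Nr1h3 lies between 99.4 and 121 CPM in pMo, between 55.2 and 70.9 CPM in intMo and between 1.19 and 4.39 CPM in cMo, while Nr1h2 and Lpcat3 stay within narrow ranges.

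Nr1h3 (ENSMUSG00000002108.9, chromosome 2, 91184061 to 91202834, protein coding as are the other 8 genes, in GRCm38, the assembly also named mm10) showed the largest change of the set against cMo. It had 99.4, 121 and 119 CPM in pMo libraries 0, 1 and 2, and 70.9, 55.2 and 56.7 CPM in intMo, against 1.19, 3.52 and 4.39 CPM in cMo. No library of a subset reached the range of another. Nr1h3 rose in intMo by a log2 of 4.33 ± 0.40 over cMo (SE, edgeR adjusted p = 0.000213, 20.1-fold) and in pMo by 5.22 ± 0.41 (edgeR adjusted p = 6.12e-05, 37.3-fold). Only 1.24% of tested genes had a larger absolute change in the second comparison. With libraries 1 and 2 alone the log2 changes were 3.83 and 4.93.

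The difference of pMo from intMo was smaller for Nr1h3, at 113 ± 11.99 CPM in pMo and 60.95 ± 8.67 CPM in intMo (SD, n = 3 each). It was not called (log2 0.89 ± 0.34, edgeR adjusted p = 0.197). With the library number as a block in these 6 libraries Nr1h3 was called higher in pMo (log2 0.88 ± 0.14, edgeR adjusted p = 0.00322), where 9.13% of all genes were called higher and 9.99% lower. This fit was added after the data were seen. Deviations from the subset means set library 0 of pMo and intMo apart from the others, while libraries 1 and 2 correlated across numbers (r = 0.403 and 0.279) about as well as within them (r = 0.3 and 0.274). With all 9 libraries and the same block it was not called (log2 0.86, edgeR adjusted p = 0.229). The call was also made when only these 6 libraries were fitted (edgeR adjusted p = 0.0175), without cMo library 0 (edgeR adjusted p = 0.00943) and from libraries 1 and 2 of each subset (log2 1.101, edgeR adjusted p = 0.000562).

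Nr1h2 (ENSMUSG00000060601.11, chromosome 7, 44549616 to 44553951), the gene of the widely expressed LXR beta, was present at similar levels in each subset. It had 143, 116 and 109 CPM in pMo, 139, 101 and 120 CPM in intMo, and 115, 102 and 92.8 CPM in cMo. The ranges of the subsets overlap, and the gene was not called in any comparison. Its log2 difference from cMo was 0.25 in pMo, with a 95% interval of -0.11 to 0.61 in the edgeR fit, and 0.22 in intMo, with an interval of -0.15 to 0.58.

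Per kilobase of exon, the scale on which levels of different genes can be set side by side, the balance of both receptors differed among subsets. The ratio of Nr1h3 to Nr1h2 was 0.648, 0.972 and 1.02 in pMo libraries 0, 1 and 2, and 0.475, 0.51 and 0.44 in intMo, against 0.00962, 0.0322 and 0.0442 in cMo. The libraries of the subsets do not overlap. On this scale LXR beta transcripts were the more abundant form in every intMo and cMo library and in pMo library 0. Both forms were near equal in pMo libraries 1 and 2. The lengths are merged exons of annotated protein-coding transcripts, and the lengths of the transcripts present in these cells were not estimated.

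**Figure D2:**
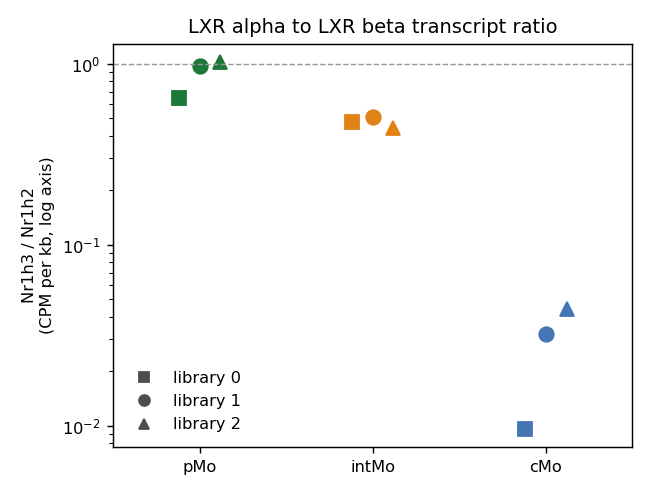
Ratio of Nr1h3 to Nr1h2 (CPM per kilobase of exon, log axis) in each library, with squares, circles and triangles for libraries 0, 1 and 2 and a dashed line at equal levels. The pMo libraries lie between 0.648 and 1.02, the intMo libraries between 0.44 and 0.51 and the cMo libraries between 0.00962 and 0.0442.

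Rxra (ENSMUSG00000015846.13, chromosome 2, 27676440 to 27762957), the gene of the shared partner RXR alpha, was highest in intMo. It had 56.5, 44.2 and 37.9 CPM in pMo and 162, 72.0 and 95.1 CPM in intMo, against 17.6, 35.3 and 25.7 CPM in cMo. All intMo libraries lay above all libraries of the other subsets, and the pMo libraries lay above those of cMo. The rise in intMo over cMo was 2.07 ± 0.34 on the log2 scale (edgeR adjusted p = 0.0033, 4.19-fold) and 1.46 with libraries 1 and 2 alone. The difference of pMo from cMo was not called (log2 0.82 ± 0.33, edgeR adjusted p = 0.0911). It was called without intMo library 0 (edgeR adjusted p = 0.0394), although that library is in neither subset of the comparison.

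Between pMo and intMo the Rxra level was lower in pMo by a log2 of -1.25 ± 0.34, which the 9-library fit did not call (edgeR adjusted p = 0.0731). In the 6 pMo and intMo libraries with the number as a block it was called lower (log2 -1.20 ± 0.16, edgeR adjusted p = 0.00153). It was also called from libraries 1 and 2 of each subset (log2 -1.03, edgeR adjusted p = 0.00939), without cMo library 0 (edgeR adjusted p = 0.045) and by DESeq2 (adjusted p = 0.00668). With all 9 libraries and the block it was not called (log2 -1.23, edgeR adjusted p = 0.112). Nr1h3 and Rxra thus had opposite signs between pMo and intMo, and their difference in change was not tested. Rxrb, another RXR gene, was not called in any comparison, at 122.5 CPM in pMo, 121 CPM in intMo and 106 CPM in cMo (means of 3 libraries).

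Abca1 (ENSMUSG00000015243.4, chromosome 4, 53030787 to 53159895) encodes the transporter that loads cholesterol onto lipid-poor apolipoproteins. The window around its start is shown because it holds the type of repeat that LXR binds, a pair of hexamers spaced by 4 bases (DR4). RefSeq promoter windows of GRCm38.p6, from 250 bases before to 50 after a start, were found for 8 of the 9 genes, 12 windows in all. Mylip encodes a ubiquitin ligase that limits the uptake of lipoprotein. Windows are printed below for Abca1, for Mylip and for Nr1h3, the gene that changed most against cMo. Capitals mark matches to the DR4 core (GGTNA repeated after any 5 bases), TATAAA or CACGTG, searched on both strands. The printed windows lie at chr4:53159846-53160145 (minus strand), chr13:45389492-45389791 (plus strand) and chr2:91195067-91195366 (minus strand). That of Nr1h3, like the other window found for this gene, lies inside the gene span given above and not at its 5' end.
Abca1: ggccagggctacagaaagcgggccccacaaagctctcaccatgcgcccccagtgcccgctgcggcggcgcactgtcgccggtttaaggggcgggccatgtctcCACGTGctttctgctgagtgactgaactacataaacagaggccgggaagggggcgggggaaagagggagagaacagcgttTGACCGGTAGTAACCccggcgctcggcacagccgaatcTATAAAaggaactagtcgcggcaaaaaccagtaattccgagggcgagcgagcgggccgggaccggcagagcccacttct
Mylip: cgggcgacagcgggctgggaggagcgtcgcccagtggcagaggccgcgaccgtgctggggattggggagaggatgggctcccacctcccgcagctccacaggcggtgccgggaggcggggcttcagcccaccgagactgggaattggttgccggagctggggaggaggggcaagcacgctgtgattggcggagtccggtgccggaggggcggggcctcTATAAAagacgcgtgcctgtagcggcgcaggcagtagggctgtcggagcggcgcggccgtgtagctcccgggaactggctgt
Nr1h3: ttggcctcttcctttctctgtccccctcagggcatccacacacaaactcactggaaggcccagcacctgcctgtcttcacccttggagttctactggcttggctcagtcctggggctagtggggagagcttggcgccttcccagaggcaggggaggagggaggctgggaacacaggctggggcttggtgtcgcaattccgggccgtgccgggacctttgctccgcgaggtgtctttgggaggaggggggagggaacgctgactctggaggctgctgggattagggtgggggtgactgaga
The DR4 core was found in 1 of the 12 windows, that of Abca1, and in 0.718% of all 32851 windows of the table. It reads ggttactaccggtca on the antisense strand and lies from 67 to 53 bases before the start. The perfect form (AGGTCA repeated after any 4 bases) was in 0.0152% of all windows and in none of the 12. TATAAA (13.6% of all windows) was 29 to 24 bases before the start of Abca1 and 32 to 27 before that of Mylip, and CACGTG (7.15%) was 147 to 142 before that of Abca1. Among windows not printed, TATAAA was also in 1 of Apoe, 96 to 91 bases before the start and, antisense, 100 to 95 before it. In that of Pltp it was at bases 37 to 42 after the start. These are matches of letters in short windows, and elements farther away were not searched.

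Transcripts of Abca1 were at 62.7, 51.8 and 54.5 CPM in pMo and at 202, 61.5 and 95.5 CPM in intMo, against 4.03, 29.5 and 19.4 CPM in cMo. Every pMo and intMo library lay above every cMo library, and pMo and intMo overlapped. The rise in intMo over cMo was 2.76 ± 0.65 (log2, edgeR adjusted p = 0.0162, 6.78-fold), and 1.69 from libraries 1 and 2 alone. In pMo the difference from cMo was 1.68 ± 0.63 and was not called (edgeR adjusted p = 0.0706). It was called by DESeq2 (adjusted p = 0.0142), without cMo library 1 (edgeR adjusted p = 0.0428), without intMo library 0 (edgeR adjusted p = 0.0496) and from libraries 1 and 2 of each subset (log2 1.12, edgeR adjusted p = 0.00913).

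Abcg1 (ENSMUSG00000024030.6, chromosome 17, 31057675 to 31117988), which passes cholesterol to high-density lipoprotein, had 193, 120 and 111 CPM in pMo and 226, 136 and 136 CPM in intMo, against 28.3, 61.7 and 64.0 CPM in cMo. It rose over cMo in intMo (log2 1.70 ± 0.36, edgeR adjusted p = 0.01) and in pMo (log2 1.46 ± 0.36, edgeR adjusted p = 0.0133). From libraries 1 and 2 alone the changes were 1.12 and 0.88. All pMo and intMo libraries lay above those of cMo. Between pMo and intMo the log2 difference was -0.24, with a 95% interval of -1.03 to 0.55. Per kilobase, the ratio of Abca1 to Abcg1 was 0.217, 0.287 and 0.328 in pMo and 0.594, 0.3 and 0.466 in intMo, against 0.095, 0.318 and 0.201 in cMo, with overlap between the subsets.

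Mylip (ENSMUSG00000038175.9, chromosome 13, 45389742 to 45412022) had 56.2, 36.3 and 36.8 CPM in pMo and 55.2, 27.5 and 28.0 CPM in intMo, against 11.01, 16.7 and 15.2 CPM in cMo. All pMo and intMo libraries exceeded those of cMo. The rise was 1.59 ± 0.31 in pMo (log2, edgeR adjusted p = 0.0048) and 1.37 ± 0.31 in intMo (log2, edgeR adjusted p = 0.0134), or 1.20 and 0.80 from libraries 1 and 2 alone. Between pMo and intMo Mylip was not called (log2 0.23), except from libraries 1 and 2 of each subset (log2 0.40, edgeR adjusted p = 0.0499).

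Apoe (ENSMUSG00000002985.14, chromosome 7, 19696109 to 19699188), the gene of the apolipoprotein that macrophages secrete with cholesterol, was the most abundant of the set. It had 1227, 1028 and 1090 CPM in pMo and 2531, 1169 and 1143 CPM in intMo, against 122, 375 and 486 CPM in cMo. The cMo libraries lay below all others. Apoe rose over cMo in intMo (log2 2.30 ± 0.49, edgeR adjusted p = 0.0102, 4.93-fold) and in pMo (log2 1.77 ± 0.48, edgeR adjusted p = 0.0208, 3.4-fold). The call in pMo was lost without pMo library 0 (edgeR adjusted p = 0.0532). From libraries 1 and 2 alone the changes were 1.43 and 1.31.

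Pltp (ENSMUSG00000017754.12, chromosome 2, 164839518 to 164857711) encodes a protein that moves phospholipid between lipoproteins. It had 135, 29.7 and 28.4 CPM in pMo and 137, 32.9 and 36.7 CPM in intMo, against 2.01, 19.7 and 17.9 CPM in cMo. The pMo and intMo libraries lay above all of cMo, and library 0 of each lay far above the others. Pltp was not called in intMo against cMo (log2 2.38 ± 0.95, edgeR adjusted p = 0.0991) or in pMo against cMo (log2 2.28 ± 0.94, edgeR adjusted p = 0.0947). With libraries 1 and 2 alone both differences were smaller and were called (log2 0.89, edgeR adjusted p = 0.00128, and log2 0.63, edgeR adjusted p = 0.00497). Pltp shares 495 exon bases with Ctsa, a lysosomal protease gene on the opposite strand with 167131 counts over the 9 libraries, against 10329 for Pltp. No source used here gives the strand setting of the counting, so the division of reads there is uncertain. Ctsa itself was at 944, 819 and 818 CPM in pMo and 1047, 686 and 689 CPM in intMo, against 398, 596 and 632 CPM in cMo.

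Lpcat3 (ENSMUSG00000004270.12, chromosome 6, 124663027 to 124704418), which encodes the enzyme that places polyunsaturated fatty acids in membrane phospholipid, had its highest mean in cMo and its lowest in pMo. It had 58.3, 60.7 and 55.3 CPM in pMo and 69.1, 64.0 and 60.2 CPM in intMo, against 87.5, 64.7 and 73.0 CPM in cMo. The pMo libraries lay below those of cMo, and intMo overlapped both. It was not called in pMo against cMo (log2 -0.37 ± 0.13, edgeR adjusted p = 0.0617), nor from libraries 1 and 2 alone (log2 -0.24, edgeR adjusted p = 0.13). It was called lower there by DESeq2 (adjusted p = 0.0422), with a filter at 1 CPM in 3 libraries (edgeR adjusted p = 0.0466) and without cMo library 1 (edgeR adjusted p = 0.0313). It shares 334 exon bases with Emg1, a ribosome assembly gene on the opposite strand that fell in pMo against cMo (log2 -0.60 ± 0.14, edgeR adjusted p = 0.0101).

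**Figure D3:**
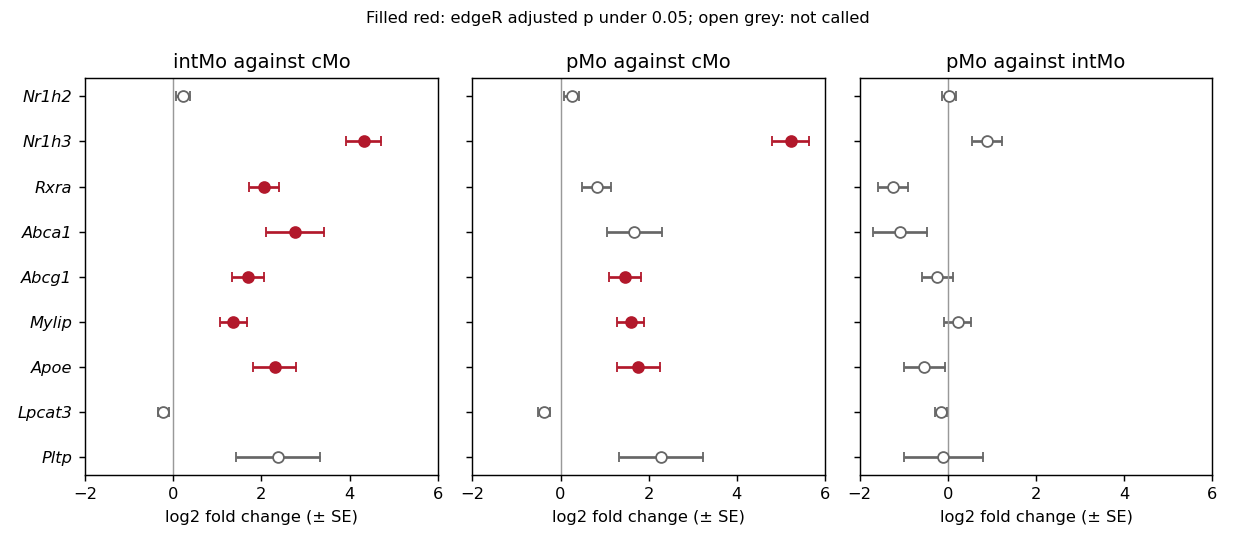
Log2 fold change of each gene with its SE in intMo against cMo, pMo against cMo and pMo against intMo, from the edgeR fit to 9 libraries, with called genes filled. Against cMo 6 genes are called in intMo and 4 in pMo, and none is called between pMo and intMo.

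Groups of libraries that do not overlap were seen for 7 of the 9 genes in intMo against cMo, for 8 in pMo against cMo and for 2 in pMo against intMo. Over all genes tested the shares were 41.3%, 49.5% and 27.7%. Per kilobase of exon, Apoe was the highest gene in each subset, at 606 ± 55.3 in pMo, 878 ± 432 in intMo and 178 ± 101.5 in cMo (CPM per kilobase, SD, n = 3 each), and Nr1h2 was next, without overlap with Apoe. The order below them differed. Nr1h3 came next in pMo, at 52.7 CPM per kilobase, and last in cMo, at 1.41 CPM per kilobase, where its range overlapped that of Abca1. The ranges of neighbours in these orders overlapped for 5 of 8 pairs in pMo, 7 of 8 in intMo and 4 of 8 in cMo.

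Across the 9 libraries, the log2 CPM of Abca1 and Apoe had a Pearson r of 0.971, that of Abcg1 and Apoe 0.978 and that of Nr1h3 and Mylip 0.914. Nr1h2 had at most 0.708 with any other gene of the set, and Lpcat3 had negative values with all 8, from -0.82 to -0.188. The points share the 3 subsets and the libraries numbered 0, so these values are descriptions. Over the genes that averaged 20 CPM or more, the patterns most like that of Nr1h3 were those of Rfx5, Lcp2 and Arhgap25 (r = 0.997, 0.997 and 0.996), and those most like Abca1 were Ptms, Calcoco1 and Rtl5 (r = 0.988 each). Their changes were smaller than that of Nr1h3, with Lcp2 at 414 ± 11.7 CPM in pMo and 367 ± 12.6 CPM in intMo, against 196 ± 32.7 CPM in cMo (SD, n = 3 each).

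Of 14 other LXR target genes, 11 were tested. Against cMo, 3 rose and 5 fell in intMo (14% and 10.4% of all genes), and 6 rose and 4 fell in pMo (17.2% and 15.9%). Their medians were 0.52 and 1.23 (log2), against -0.0083 and 0.025 over all genes. Libraries 1 and 2 alone gave 4 higher and 4 lower in intMo (15.8% and 11.9% of all genes), and 6 higher and 4 lower in pMo (19.7% and 18%). The changes of largest size among called genes in pMo against cMo were those of Lpl, lipoprotein lipase (log2 3.37 ± 0.44, edgeR adjusted p = 0.000714), and Scd1, a stearoyl-CoA desaturase (log2 -3.16 ± 0.57, edgeR adjusted p = 0.00317). Lpl was at 422 CPM in pMo, 68.8 CPM in intMo and 40.8 CPM in cMo, and also rose in pMo against intMo (log2 2.61 ± 0.42, edgeR adjusted p = 0.0102). Scd1 was at 2.51 CPM in pMo, 1.28 CPM in intMo and 22.6 CPM in cMo.

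The other targets named here were chosen after their values were seen. Apoc2, which activates lipoprotein lipase, rose in pMo against cMo (log2 2.88 ± 0.21, edgeR adjusted p = 3.56e-05) and against intMo (log2 2.26 ± 0.20, edgeR adjusted p = 0.000868). Its call in intMo against cMo (log2 0.62, edgeR adjusted p = 0.048) was lost in 10 of 17 alternatives, at up to 0.131, among them those without any 1 library other than cMo library 2. Mertk, through which phagocytes engulf apoptotic cells, rose over cMo in intMo (log2 4.50) and in pMo (log2 3.06, edgeR adjusted p = 0.00147). Arl4c, a small GTPase, rose in pMo against cMo (log2 1.23 ± 0.28, edgeR adjusted p = 0.00905). Srebf1, the gene of the lipogenic factor SREBP1, fell against cMo in intMo (log2 -0.90 ± 0.26, edgeR adjusted p = 0.0314) and in pMo (log2 -0.77 ± 0.25, edgeR adjusted p = 0.0432). Each Srebf1 call was lost in 6 of 17 alternatives, at up to 0.0946 and 0.146, among them those without cMo library 0 or 1 or pMo library 1, for intMo also without any intMo library, and for pMo also without intMo library 2 or pMo library 2. Fasn and Scd2, enzymes of fatty acid synthesis and desaturation, also fell in both comparisons (log2 -1.58 and -1.73 in intMo, and -1.37 and -1.17 in pMo). Fasn was near the threshold in pMo (edgeR adjusted p = 0.0484), and its libraries overlapped in both comparisons. It had 402, 206 and 92.15 CPM in cMo libraries 0, 1 and 2, against up to 93.1 CPM in intMo and 117 CPM in pMo.

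The 13 listed partners and co-regulators held 12 tested genes. None was called in intMo against cMo or in pMo against intMo, and 1 rose and 1 fell in pMo against cMo, below the shares of all genes (17.2% higher and 15.9% lower). They were Ncoa3, a co-activator (log2 0.59 ± 0.17, edgeR adjusted p = 0.027), and Tbl1x, a subunit of co-repressor complexes (log2 -0.67 ± 0.13, edgeR adjusted p = 0.0054). The Ncoa3 call was lost without cMo library 0 or 2, without any pMo library and with libraries 1 and 2 alone, at up to 0.0885.

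Of 17 genes of cholesterol uptake, storage and transport, 16 were tested. In intMo against cMo 2 rose and 2 fell, and in pMo 2 rose against cMo and 2 against intMo, with none lower. Against cMo these are shares of 16 genes near or below those of all genes given above (14% higher and 10.4% lower in intMo, 17.2% and 15.9% in pMo). In pMo against intMo the shares of all genes were 3.29% higher and 1.69% lower, so 2 of 16 higher lay above that share. The called genes with the largest change in pMo against cMo were Cd36, a scavenger receptor for oxidized lipoprotein (log2 5.01 ± 0.76, edgeR adjusted p = 0.00148), and Lipa, the lysosomal acid lipase (log2 1.23 ± 0.19, edgeR adjusted p = 0.00148). Cd36 was at 56.7 CPM in pMo, 8.11 CPM in intMo and 1.76 CPM in cMo. Its calls in intMo against cMo (edgeR adjusted p = 0.0481) and in pMo against intMo (edgeR adjusted p = 0.0487) were each lost in 12 alternatives, at up to 0.14 and 0.171, among them those without any 1 library other than cMo library 0. From libraries 1 and 2 alone the list had 3 higher and 1 lower in intMo (15.8% and 11.9% of all genes), and 3 higher and 3 lower in pMo (19.7% and 18%), against cMo.

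Of 6 genes for oxysterol enzymes and their receptor, 3 were tested. In intMo against cMo 1 rose and 1 fell (14% and 10.4% of all genes), and none was called in pMo against cMo. From libraries 1 and 2 alone 1 rose and 1 fell in intMo against cMo (15.8% and 11.9% of all genes). In pMo against cMo none rose and 2 fell (19.7% and 18%). The most abundant was Cyp27a1, which makes the LXR ligand 27-hydroxycholesterol, at 105, 54.8 and 56.0 CPM in pMo and 208, 109 and 106 CPM in intMo, against 16.1, 57.1 and 66.0 CPM in cMo. It rose in intMo against cMo (log2 1.61 ± 0.51, edgeR adjusted p = 0.0488), a call lost in 12 of 17 alternatives (up to 0.148), among them those without any 1 library other than pMo library 0. The gene that fell in intMo against cMo was Gpr183, the receptor (log2 -1.24 ± 0.34, edgeR adjusted p = 0.0284). Its means were 40.9 CPM in pMo, 18.4 CPM in intMo and 43.5 CPM in cMo, and the intMo and cMo libraries overlapped. Ch25h, which makes 25-hydroxycholesterol, had at most 6 counts in a library and was not tested.

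All 18 listed genes of the SREBP2 pathway, which makes and imports cholesterol, were tested. In intMo against cMo 15 fell and none rose, where 10.4% of all genes were called lower and 14% higher. In pMo against cMo 5 fell and none rose (15.9% and 17.2% of all genes). Between pMo and intMo none was called (1.69% lower and 3.29% higher). The medians were -1.12, -0.53 and 0.45 (log2). From libraries 1 and 2 alone 13 fell in intMo and 3 in pMo against cMo, with medians of -0.59 and -0.16. Of all genes 11.9% and 18% were called lower there, so the count in pMo was near the share of all genes. In pMo against intMo 6 rose, where 7.43% of all genes were called higher.

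**Figure D4:**
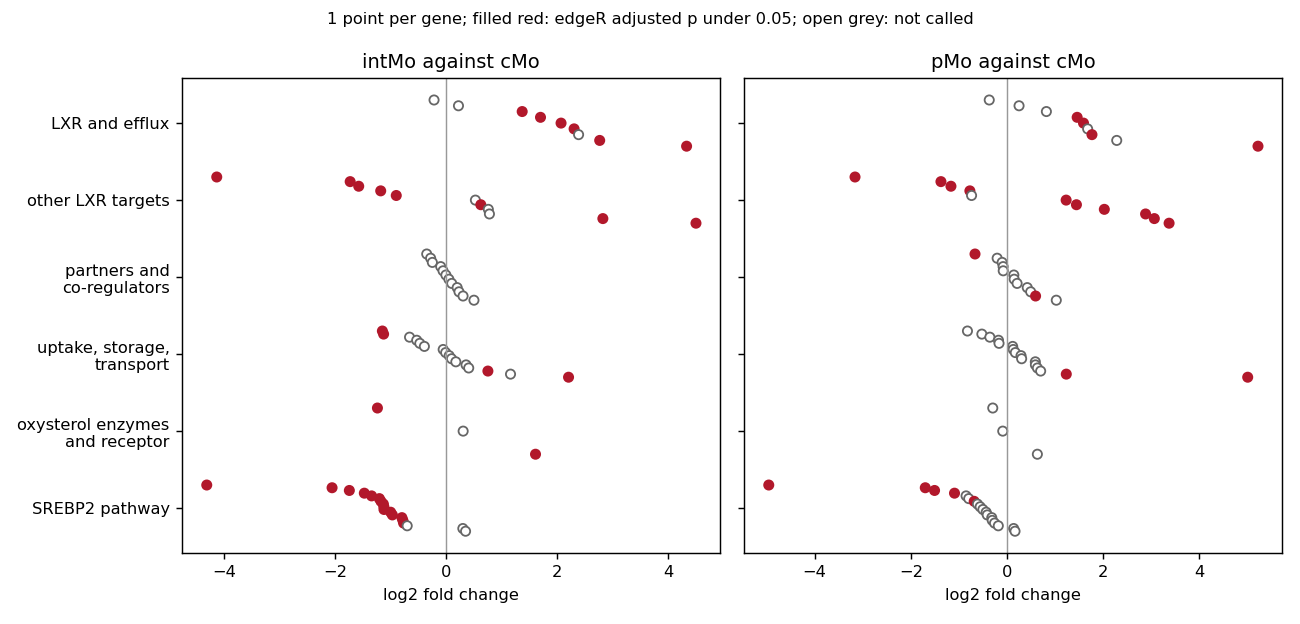
Log2 fold change of each tested gene of 6 lists in intMo against cMo and in pMo against cMo, from the edgeR fit, with called genes filled in red. The LXR and efflux genes lie mostly to the right of 0, the SREBP2 pathway genes mostly to the left, and the other LXR targets on both sides.

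Markers of other cells also differed between cMo and the other subsets. Of 14 stromal genes, which the feeder cells could carry, 12 were tested, and all 12 rose over cMo in intMo and in pMo. The shares of all genes called higher were 14% and 17.2%. Dcn had no count in any library and Lum at most 1. The summed level of the 14 genes was 248 to 489 CPM in pMo and 221 to 737 CPM in intMo, against 9.77 to 20.3 CPM in cMo. Col1a2, a collagen chain, had 75.8, 42.0 and 31.3 CPM in pMo and 113, 24.3 and 35.9 CPM in intMo, against 2.63, 0.668 and 0.828 CPM in cMo, and Dll1, the ligand that the OP9-DLL1 line carries, had 21.5, 9.28 and 8.61 CPM in pMo and 37.0, 6.03 and 9.81 CPM in intMo, against 1.19, 0.492 and 0.252 CPM in cMo. Pltp and the stromal sum were both highest in library 0 of pMo and of intMo, but in cMo library 0 had the highest stromal sum and the lowest Pltp. The part of feeder cells in the levels of Pltp, Apoe and the other genes was not tested.

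Over all genes, 14% were called higher and 10.4% lower in intMo against cMo, and 17.2% and 15.9% in pMo against cMo. Of 9 macrophage genes tested, a list that also holds Mertk, 7 rose and 2 fell against cMo in intMo and likewise in pMo. Their summed level was 1435 to 2130 CPM in pMo and 3255 to 6159 CPM in intMo, against 316.5 to 804 CPM in cMo, and intMo library 0 was the highest. Of 8 dendritic cell genes 3 rose and 3 fell in pMo against cMo, and 5 rose and 1 fell in intMo against cMo. Of 8 granulocyte and progenitor genes 5 fell in each of these comparisons and none rose. With libraries 1 and 2 alone, 15.8% of all genes were called higher and 11.9% lower in intMo, and 19.7% and 18% in pMo. There 5 of the 8 granulocyte and progenitor genes fell and 3 rose in each comparison. Their summed level was 358, 1077 and 1123 CPM in pMo and 289, 1532 and 1524 CPM in intMo, against 7838, 1423 and 1481 CPM in cMo, so cMo library 0, in which 7 of the 9 LXR genes were lowest, had by far the highest. A list of 11 immediate early genes and heat shock genes had 8 called higher in pMo and 7 in intMo against cMo. Its summed level was 2702, 1144 and 1045 CPM in pMo and 3342, 1194 and 1317 CPM in intMo, against 499.6, 549 and 583 CPM in cMo, with library 0 far above the others in pMo and intMo, where most of the 9 LXR genes were also highest. The part of these cells, or of the immediate early genes, in the LXR and efflux genes was not tested. In bulk libraries, more cells of a type and more RNA per cell cannot be told apart.

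**Figure D5:**
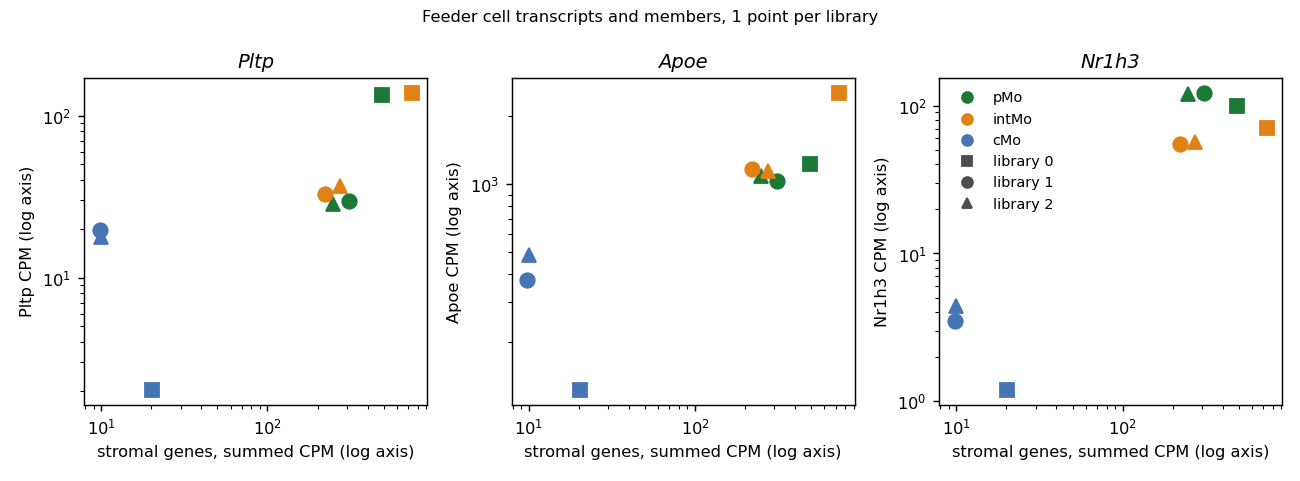
Summed level of the 14 stromal genes (CPM, log axis) against the level of Pltp, Apoe and Nr1h3 (CPM, log axes), 1 point per library, coloured by subset and shaped by library number. The libraries of cMo lie at 9.77 to 20.3 CPM of stromal genes and those of pMo and intMo at 221 to 737 CPM, and Nr1h3 is higher in all pMo libraries than in intMo over an overlapping range of stromal sums.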

How the data were processed

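RNA-seq libraries of in vitro pMo, intMo and cMo (3 each) were read from a table of estimated counts per gene that the authors deposited. Per the labels' protocols, RNA extraction used RNAzol, the NEBNext Ultra II Stranded kit served for library construction, and the submitters' processing notes name kallisto 0.46.1 and mm10. No source used here gives the annotation or whether counting used strand. The estimated counts (25.6% to 27.5% not whole) were rounded.

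edgeR 4.0.16 (R 4.3.3) was run with its default filter by subset, TMM scaling and robust quasi-likelihood fits of all 9 libraries, with subset as the only term. Benjamini-Hochberg adjustment covered the 14059 genes tested, and genes were called at an adjusted p under 0.05. SE is the absolute log2 change over the root of F. CPM uses TMM library sizes, and gene positions come from GENCODE on GRCm38. Alternatives were RLE and upper quartile scaling, other filters, DESeq2 1.42.0, fits of fewer libraries and a replicate block.

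From each list outside the 9 genes, the rule named both genes of largest called change in pMo against cMo without overlap, or the most abundant gene where none was called. For the SREBP2 list these are not reported here. The members and lists were chosen with earlier results of these data known. The check of pairing correlated deviations from subset means: same-numbered pMo and intMo libraries had r of 0.588, 0.3 and 0.274, all positive, but pMo library 2 with intMo library 1 had 0.403 and pMo library 1 with intMo library 2 had 0.279, so the values separate library 0 from the others rather than 3 pairs. Those of intMo and cMo (-0.143 to 0.0657) and of pMo and cMo (-0.0156 to 0.23) did not all pass.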

Additional observations from a re-analysis of the deposited data

How the results depend on the processing

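The 6 genes of the set called higher in intMo against cMo were 6 under each alternative, except 7 with libraries 1 and 2 alone, where Pltp was added. The 4 called higher in pMo against cMo were less stable. Apoe lost its call without pMo library 0. Abca1 gained one by DESeq2, without cMo library 1 and without intMo library 0, where Rxra also gained one. With libraries 1 and 2 alone 6 were called higher there, with Abca1 and Pltp added (19.7% of all genes). Of 468 values of the 9 genes under alternatives, 440 kept their direction and their side of the threshold, 1 lost its call and 19 gained one. With all 9 libraries the replicate block changed no call of the 9 genes between 2 subsets, and the members that differ among the 3 subsets numbered 5 with it and 6 without. With pMo and intMo libraries alone and the replicate block, 1 gene was called higher (Nr1h3) and 1 lower (Rxra) in pMo against intMo, in place of 0 and 0, where 9.13% of all genes were called higher and 9.99% lower. In that comparison 1 was called lower by DESeq2 (4.6% of all genes) and 1 higher when only those 2 subsets were fitted (4.21%). From libraries 1 and 2 alone 2 were called higher and 1 lower (7.43% and 9.67% of all genes). Over fits that left out 1 library, 0 to 1 were called in each direction. Those fits called 1.18% to 4.54% of all genes higher and 0.355% to 3.19% lower. In pMo against cMo 1 was called lower (Lpcat3) with the 1 CPM filter (17.8% of all genes) and by DESeq2 (18.6%). When 1 library was left out, 0 to 1 were called lower there, where 9.3% to 16.6% of all genes were. The cause of these changes was not tested.

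The log2 changes that turned sign were all uncalled, and 16 of the 17 were of pMo against intMo. Where 1 library was left out, these ranged from -0.085 to 0.15 for Nr1h2, from -1.24 to 0.88 for Pltp, from -0.52 to 0.051 for Abcg1, from -0.0043 to 0.64 for Mylip, from -0.64 to 0.72 for Col1a2, from -0.96 to 0.73 for Dll1 and from -0.078 to 0.27 for Srebf1. Nr1h2 was at -0.025 with upper quartile scaling and Col1a2 at 0.016 with the replicate block. From libraries 1 and 2 alone Col1a2 was at 0.28, Dll1 at 0.17, Srebf1 at -0.020 and Cyp27a1, in pMo against cMo, at -0.15.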
